A study of Mus musculus with 16 samples.

Results

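The 10 genes described here encode core parts of ER-associated degradation (ERAD): Edem1, Edem2, Edem3, Os9, Sel1l, Syvn1, Herpud1, Derl1, Derl2 and Derl3. They were chosen by name from the 29806 genes of the count tables, and all 10 passed the filter on low counts that kept 14179 genes for testing. RNA was sequenced from haematopoietic stem cells (HSC) and from MPP3, multipotent progenitors with a myeloid bias, both sorted from mouse bone marrow. The MPP3 are labelled as the Fcgr-negative fraction, named for the Fc receptors that mark more committed granulocyte and monocyte progenitors. Control mice were wild type, and mutant mice carried Jak2V617F, an activating amino acid change in the cytokine receptor kinase JAK2 that is found in myeloproliferative neoplasms. Each cell type of each genotype gave 4 libraries, called here control HSC, mutant HSC, control MPP3 or mutant MPP3 with the replicate numbers 1 to 4, and the labels use that number as the batch. The series title places the samples in a study of unfolded protein response signalling in myeloid cell production. How the mutant allele was made and driven, whether it was present in 1 or both copies, and the mice's age were not given in the sources used here. Nor do the labels tie replicates to separate animals, and the p-values therefore reflect only the spread among these libraries, which may be technical.

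ERAD removes misfolded proteins from the endoplasmic reticulum (ER). EDEM proteins trim mannose from the glycans of proteins that fail to fold, the lectin OS9 binds the trimmed glycan, and the adaptor SEL1L passes the client to the membrane ubiquitin ligase SYVN1 (also called HRD1). HERPUD1 and the Derlins are further parts of that ligase complex, through which the client is pulled into the cytosol by the ATPase VCP and handed to the proteasome. Many of these genes are known targets of the unfolded protein response, which raises ERAD and folding capacity when the ER is loaded, through the sensors IRE1 (gene Ern1) with its target XBP1, ATF6 and PERK.

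Library totals ran from 33108537 to 41230956 estimated counts, with 14439 to 16522 genes detected per library. Values are CPM (counts scaled to library size with TMM), group summaries are mean ± SD (n = 4 libraries), and log2 fold changes are fitted values ± SE. A gene was said to rise or fall where edgeR's quasi-likelihood F test gave a p under 0.05 after Benjamini-Hochberg adjustment over the 14179 genes. The labelled cell types were checked with marker lists: all 8 markers of MPP3 and myeloid progenitors rose from HSC to MPP3 in both genotypes, and 8 of 9 HSC markers fell in controls and 5 of 9 in mutants. Of the 4 Fc receptor genes of the gate, Fcgr2b and Fcgr3 rose from HSC to MPP3 in both genotypes, and Fcgr2b stood at 8.07 to 39.2 CPM in control MPP3 and 2.14 to 8.16 CPM in control HSC, so their transcripts were not absent from the Fcgr-negative cells. The 9 HSC markers summed to 987 to 1180 CPM in control HSC and to 664 to 775 CPM in mutant HSC, and 5 of them fell in mutant HSC. All 12 DNA replication genes rose in mutant HSC, with a summed level of 2950 to 3670 CPM in control HSC and 4800 to 6640 CPM in mutant HSC. Mutant HSC replicates 1 and 4 correlated more closely than any other pair within a group (r = 0.971, against 0.933 to 0.958 for the other pairs, across genes, which are not independent replicates), so results that use mutant HSC are also given without both where the call changes. Batch 1 stood apart in immediate early genes, which respond to handling of cells: their sum over 13 genes was 9310 CPM in control HSC replicate 1 against at most 1910 CPM in the other 3 libraries of that group, and 1810 against at most 717 CPM in mutant HSC. In MPP3 the sum for replicate 1 was 5840 CPM against at most 1020 CPM in controls, and 1200 against at most 695 CPM in mutants. The difference was not only one of batch: in every batch the sum was higher in controls than in mutants of the same cell type. Calls that change without the 4 libraries of batch 1, an alternative chosen after seeing the data, are given beside the result.

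Levels were compared between genes in TPM, in which transcript abundance is scaled by gene length and library total. Herpud1 was highest, with a mean of 118 TPM over the 16 libraries (range 89.7 to 152), followed by Edem2 at 96.4 TPM (62.2 to 121) and Os9 at 95.6 TPM (76.1 to 127). These 3 genes lay above 90.9%, 88.8% and 88.7% of the tested genes. Derl2 (38.8 TPM), Derl1 (27.2 TPM), Sel1l (20.5 TPM) and Syvn1 (14.0 TPM) formed the middle of the order. Edem1 (3.80 TPM), Edem3 (1.62 TPM) and Derl3 (0.654 TPM) were lowest. Neighbours in the order were not always separated within a library: Herpud1 stood above Edem2 in 13 of 16 libraries and Edem2 above Os9 in 11, whereas Os9 stood above Derl2, and Syvn1 above Edem1, in all 16.

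**Figure D1:**
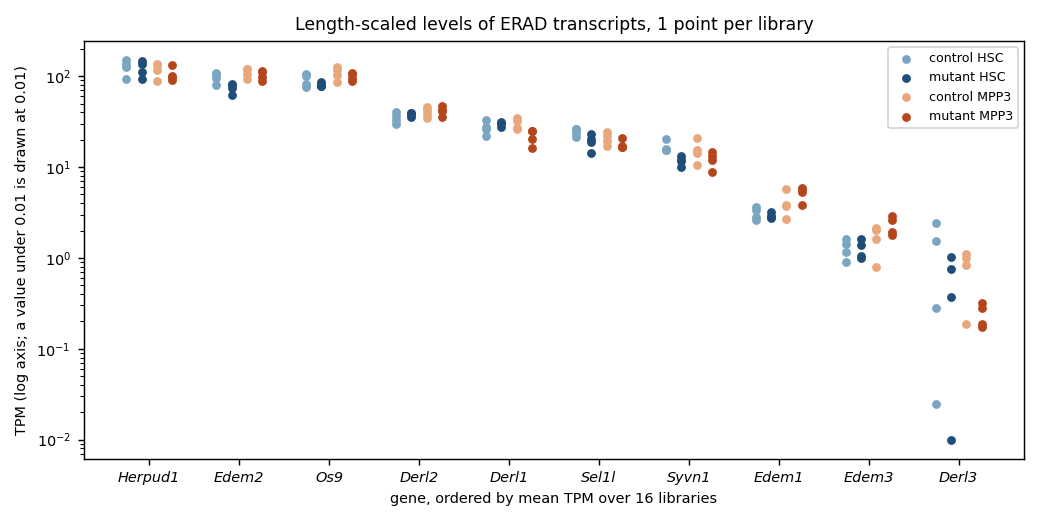
TPM of the 10 ERAD genes in each library on a log axis, ordered by the mean over 16 libraries and coloured by group. Herpud1, Edem2 and Os9 lie between 62.2 and 152 TPM in every group, and Derl3 ranges from 0 (drawn at 0.01) to 2.39 TPM.

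Edem2 made up 95.7% ± 0.364 of the summed EDEM TPM in control HSC, 94.7% ± 0.322 in mutant HSC, 95.1% ± 0.622 in control MPP3 and 93.2% ± 0.870 in mutant MPP3 (SD, n = 4). Os9 made up 86.1% to 90.5%, as group means, of the TPM of Os9 and Erlec1, the other ER lectin of this route. Derl1 and Derl2 shared the Derlin transcript, with Derl1 at 43.0% ± 4.74 in control HSC, 43.6% ± 2.29 in mutant HSC, 42.3% ± 4.84 in control MPP3 and 33.7% ± 3.90 in mutant MPP3. Derl1's share in mutant MPP3 ran from 29.7% to 37.2%, below every mutant HSC library (40.7% to 45.8%) and overlapping control MPP3 (35.9% to 47.7%). The ratio of Sel1l to Syvn1 TPM had means of 1.42 to 1.68 in the 4 groups. It ran from 1.08 to 2.32 in mutant HSC and from 0.926 to 1.7 in control MPP3. In control MPP3 replicate 3, Syvn1 stood above Sel1l (20.7 and 19.1 TPM).

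Promoters of 9 of the 10 genes were found in RefSeq sequence (GRCm38.p6), each 250 bases before to 50 bases after the start of the gene. They are shown for the 3 genes whose windows hold an ER stress element, Herpud1, Syvn1 and Derl3, and for Edem2, the gene that passed the test in 2 comparisons. The motifs searched on both strands were ERSE, ERSE-II, UPRE and CARE, known binding elements of ATF6, XBP1 and ATF4. Their consensus letters come from general knowledge of these elements, not from the deposited files or the reference, and are not spelled out here. Capitals mark the ERSE or ERSE-II match, and each sequence is written along the gene's strand, 5′ to 3′.
Herpud1, chr8:94386179-94386478, plus strand: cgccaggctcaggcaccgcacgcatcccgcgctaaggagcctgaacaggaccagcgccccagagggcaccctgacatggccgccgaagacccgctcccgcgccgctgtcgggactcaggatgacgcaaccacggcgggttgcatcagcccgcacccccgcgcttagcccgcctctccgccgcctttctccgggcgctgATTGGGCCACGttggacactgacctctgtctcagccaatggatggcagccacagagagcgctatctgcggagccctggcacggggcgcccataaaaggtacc
Syvn1, chr19:6046326-6046625, plus strand: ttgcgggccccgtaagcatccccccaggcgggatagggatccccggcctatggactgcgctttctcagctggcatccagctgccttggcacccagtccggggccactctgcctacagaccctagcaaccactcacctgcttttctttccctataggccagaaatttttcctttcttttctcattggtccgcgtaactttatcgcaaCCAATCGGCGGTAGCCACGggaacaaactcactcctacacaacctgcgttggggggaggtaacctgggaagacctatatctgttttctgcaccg
Derl3, chr10:75893148-75893447, plus strand: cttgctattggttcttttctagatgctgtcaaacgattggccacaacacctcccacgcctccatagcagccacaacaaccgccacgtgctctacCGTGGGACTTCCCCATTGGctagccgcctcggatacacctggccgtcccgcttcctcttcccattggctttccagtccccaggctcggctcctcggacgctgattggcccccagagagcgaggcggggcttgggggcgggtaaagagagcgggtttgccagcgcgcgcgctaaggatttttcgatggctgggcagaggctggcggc
Edem2, chr2:155729426-155729725, minus strand: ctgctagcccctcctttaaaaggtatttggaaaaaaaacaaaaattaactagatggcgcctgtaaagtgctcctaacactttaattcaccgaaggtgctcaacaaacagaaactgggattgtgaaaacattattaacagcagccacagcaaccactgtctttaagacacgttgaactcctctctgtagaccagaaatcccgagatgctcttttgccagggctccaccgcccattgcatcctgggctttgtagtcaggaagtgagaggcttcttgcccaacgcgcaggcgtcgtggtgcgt
The ERSE-II match in Herpud1 lay 52 to 42 bases before the start, and Herpud1 also held a CARE match on the reverse strand, 112 to 105 bases before it. The ERSE match in Syvn1 lay 44 to 26 bases before the start, and that in Derl3, on the reverse strand, 156 to 138 bases before it. Of 32851 promoter windows of the same length, 0.119% held ERSE, 0.0365% ERSE-II, 0.676% UPRE and 3.97% CARE. The Edem2 window held none of the 4 motifs, nor did those of Edem1, Edem3, Derl2, Sel1l and Os9. A match is a description of the letters and not evidence of binding, and its absence says only that these letters are not in this window.

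In mutant HSC, Edem2, which makes the first mannose cut on a failing glycoprotein, was the 1 member of 10 that passed the test against control HSC, and it fell. Of all genes tested, 7.3% passed in this comparison, and 2.74% passed and were lower. Edem2 (ENSMUSG00000038312, chr2:155701677-155729475, minus strand) stood at 146, 166, 187 and 178 CPM in control HSC replicates 1 to 4 and at 131, 129, 119.5 and 139.5 CPM in mutant HSC replicates 1 to 4. All 4 mutant libraries lay below all 4 controls, and the mutant library was the lower one in 4 of 4 batches, with log2 differences from -0.64 to -0.15. The means were 169 ± 17.7 and 129.7 ± 8.25 CPM, a log2 fold change of -0.38 ± 0.10 (95% interval -0.60 to -0.17, edgeR adjusted p = 0.0272), or 0.766-fold. The direction held when any 1 library was left out, with log2 fold changes from -0.42 to -0.31. The call did not: edgeR's adjusted p was 0.0531 to 0.0897 without control HSC replicate 2, 3 or 4, any 1 of the 4 mutant HSC libraries, control MPP3 replicate 1 or mutant MPP3 replicate 2. It was also lost without a filter on low counts (0.0636) and with HSC fitted alone (0.0708). The same held without mutant HSC replicates 1 and 4 (0.102, log2 fold change -0.45) and without batch 1 (0.0592, log2 fold change -0.43), fits that hold fewer libraries. The call held with DESeq2 (0.00686), limma-voom (0.0296) and batch as a block (0.015), which called 11.8%, 8.96% and 9.83% of all genes. In bulk RNA, a lower level in each cell and a smaller share of cells that carry the transcript cannot be told apart.

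**Figure D2:**
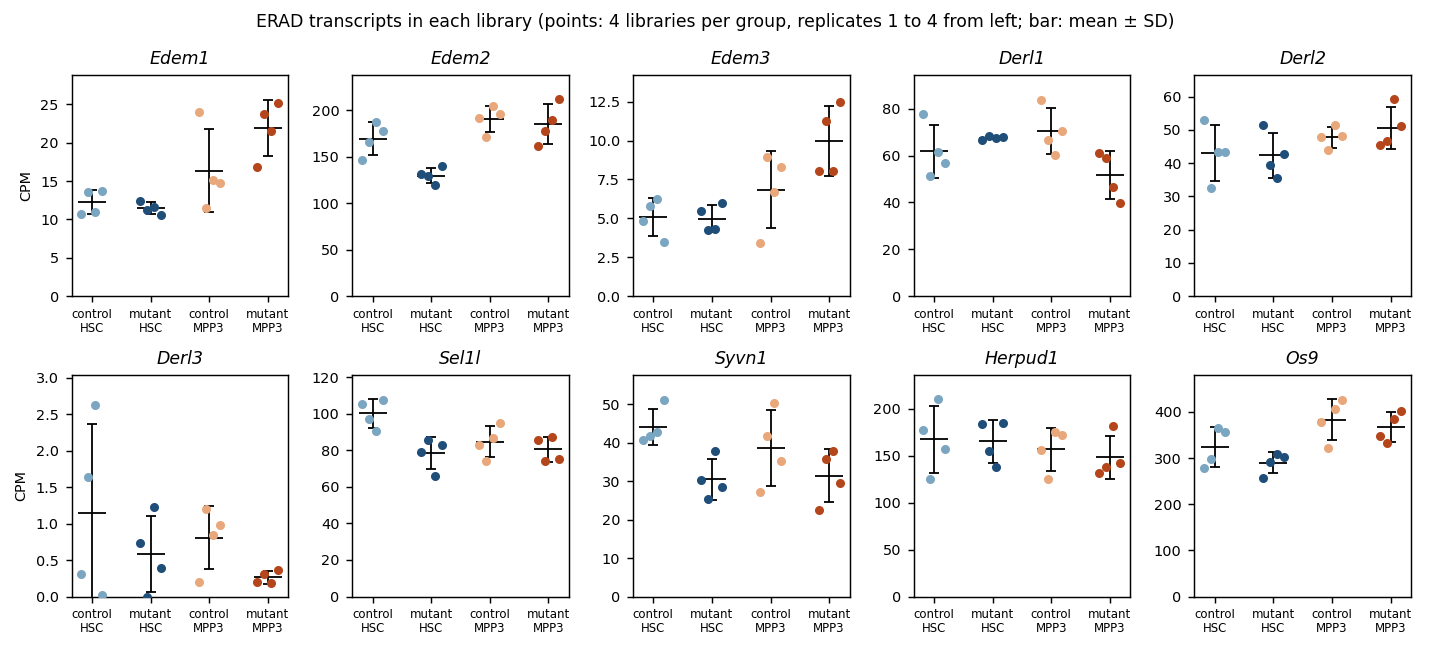
CPM of each ERAD gene in the 16 libraries (points, replicates 1 to 4 from left within a group) with the mean ± SD as bars, on linear axes from 0 that differ between genes. Edem2, Sel1l and Syvn1 are lower in all 4 mutant HSC libraries than in all 4 control HSC libraries, and Edem1 reaches 16.9 to 25.2 CPM in mutant MPP3.

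The ligase core lay in the same direction without passing the test. Sel1l, the adaptor that holds SYVN1 stable, stood at 105, 97.2, 90.3 and 108 CPM in control HSC and at 79.1, 85.9, 66.2 and 82.9 CPM in mutant HSC. The groups did not overlap, and the log2 fold change was -0.35 ± 0.11 (95% interval -0.58 to -0.12, edgeR adjusted p = 0.0593); DESeq2 placed it past the threshold (0.0299). Syvn1, the ligase itself, stood at 40.7, 41.7, 42.7 and 51.0 CPM in control HSC and at 30.2, 25.3, 37.9 and 28.5 CPM in mutant HSC. Every mutant library was again under every control, with a log2 fold change of -0.53 ± 0.20 (-0.94 to -0.12, edgeR adjusted p = 0.115). Exons of Syvn1 overlap those of Mrpl49 on the opposite strand, and without a stated strand protocol reads of the pair cannot be told apart. Edem2, Sel1l and Syvn1 were thus 3 of 10 members whose HSC groups did not overlap, all 3 lower in mutants, beside 14.9% of all tested genes in either direction and 7.6% lower.

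The other 7 members showed no call between mutant and control HSC. Os9, the lectin that reads the trimmed glycan, stood at 279, 297, 365 and 357 CPM in control HSC and 257, 291.5, 309 and 303 CPM in mutant HSC. Its groups overlapped, the mutant library was lower in 4 of 4 batches, and the log2 fold change was -0.16 ± 0.11 (-0.39 to 0.07, edgeR adjusted p = 0.442). Herpud1, a scaffold of the ligase complex and a widely used reporter of ER stress, ran from 125.0 to 211 CPM in control HSC and from 138 to 185 CPM in mutant HSC, with an interval of -0.35 to 0.31 around a log2 fold change of -0.02. Edem1 (-0.09, interval -0.53 to 0.35), Edem3 (-0.03, -0.68 to 0.61), Derl1 (0.13, -0.19 to 0.45) and Derl2 (-0.02, -0.34 to 0.29) had intervals on both sides of 0. Exons of Derl2 overlap those of Mis12 on the opposite strand, so its counts carry the same uncertainty as those of Syvn1. Derl3, the Derlin of secretory tissues, was near the detection limit with 0 to 101 counts per library, and its log2 fold change of -0.97 had an interval of -3.47 to 1.54. Of the 10 log2 fold changes, 9 were negative, with a median of -0.13 beside a median of -0.06 over all tested genes. The share of negative values over all genes was not computed. At an unadjusted p under 0.05 there were 3 members (Edem2, Sel1l and Syvn1), against 21.7% of all genes.

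Edem2's fall stood beside other differences between the same libraries. As given above, DNA replication genes rose and 5 HSC markers fell in mutant HSC. Among the MPP3 and myeloid progenitor markers, Cd48 rose and Prtn3 fell. All 9 neutrophil and monocyte markers had negative values (median -1.28, sums of 21.0 to 69.9 CPM in control HSC and 3.46 to 48.6 CPM in mutant HSC), as had the 4 tested stroma and endothelium markers (6.14 to 19.3 and 2.41 to 4.03 CPM over 5 genes). Of each of these lists, edgeR called 0 and 1 gene had an unadjusted p under 0.05. Plasma and B cell markers, from cell types with a large ERAD capacity, summed to 83.9 to 111 CPM in control HSC and 65.6 to 73.8 CPM in mutant HSC over 10 genes, with 1 gene (Cd79b) falling. Mzb1 was at 0 in every control HSC library, and Ebf1 in every mutant HSC library. The immediate early genes, whose highest sums were those of batch 1 given above, summed to 1210 to 9310 CPM in control HSC (median 1660) and 416 to 1810 CPM in mutant HSC (median 606). The sum was higher in control than in mutant HSC in every batch. It was 1910 and 717 CPM in batch 2, 1410 and 495 CPM in batch 3, and 1210 and 416 CPM in batch 4. All 12 tested genes had negative log2 fold changes (median -1.87). None passed edgeR's test, and 4 had an unadjusted p under 0.05. Megakaryocyte markers summed to 555 to 772 CPM and 820 to 1240 CPM, and 2 of 5 (Pf4 and Itga2b) rose. The part of these shifts in the Edem2 result was not tested.

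In MPP3, 0 of 10 members passed edgeR's test between mutant and control, as 0.0635% of all genes did. DESeq2, limma-voom and the batch block also called 0, and 2.74%, 0.0423% and 0.578% of all genes. Of the members, 1 (Derl1) had an unadjusted p under 0.05, against 13.8% of all genes. Derl1, a channel-forming Derlin of the ligase complex, stood at 83.8, 66.8, 60.4 and 70.4 CPM in control MPP3 and at 61.0, 59.2, 46.7 and 39.9 CPM in mutant MPP3. Mutant replicate 1 lay just above control replicate 3, so the groups overlapped, and the mutant library was lower in 4 of 4 batches. The log2 fold change was -0.45 ± 0.15 (95% interval -0.76 to -0.13, edgeR adjusted p = 0.194). No member had groups that did not overlap, against 7.12% of all genes.

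Both minor EDEM genes had higher means in mutant MPP3. Edem1 stood at 24.0, 11.5, 15.2 and 14.8 CPM in control MPP3 and at 16.9, 23.8, 21.6 and 25.2 CPM in mutant MPP3. Control replicate 1 lay among the mutant values, apart from the other 3 controls, and the log2 fold change was 0.42 ± 0.21 (-0.02 to 0.86, edgeR adjusted p = 0.401). Edem3, which trims mannose further along the route, stood at 3.42, 8.92, 6.69 and 8.31 CPM in control MPP3 and at 8.05, 11.3, 8.06 and 12.5 CPM in mutant MPP3. It was higher in the mutant library of 4 of 4 batches, with a log2 fold change of 0.54 ± 0.31 (-0.10 to 1.19, edgeR adjusted p = 0.462). Syvn1 was lower in 4 of 4 batches at -0.30 ± 0.20 (-0.71 to 0.11, edgeR adjusted p = 0.541). Edem2 (-0.04, interval -0.25 to 0.17), Sel1l (-0.07, -0.30 to 0.15), Os9 (-0.06, -0.30 to 0.17), Herpud1 (-0.08, -0.41 to 0.25) and Derl2 (0.08, -0.23 to 0.40) had log2 fold changes between -0.08 and 0.08. Derl3 ran from 0.203 to 1.20 CPM in control MPP3 and from 0.179 to 0.358 CPM in mutant MPP3, with overlapping groups and a log2 fold change of -1.62 (-4.18 to 0.95). The median of the 10 members was -0.07, beside -0.02 over all genes.

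Whether the genotypes differed by a different amount in MPP3 than in HSC was tested directly. None of the 10 members passed edgeR's test, as 0.0423% of all genes did. DESeq2, limma-voom and the batch block called 0 members as well, and 0.543%, 0.0353% and 0.00705% of all genes. At an unadjusted p under 0.05 there were 2 members, Derl1 and Edem2, against 6.93% of all genes. Derl1's mutant effect was lower in MPP3 than in HSC by a log2 difference of -0.58 ± 0.21 (95% interval -1.03 to -0.12, edgeR adjusted p = 0.528), with the same sign in 4 of 4 batches. Edem2's mutant effect was higher in MPP3 than in HSC by 0.34 ± 0.14 (0.04 to 0.64, edgeR adjusted p = 0.631), with that sign in 3 of 4 batches. Thus the fall of Edem2 in mutant HSC was not shown to be particular to HSC.

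Between the cell types, controls had no called member: 0 of 10 passed edgeR's test from HSC to MPP3, beside 13.6% of all genes. DESeq2 and limma-voom also called 0, with 17.2% and 15.4% of all genes, and 2 members (Sel1l and Os9) had an unadjusted p under 0.05, against 26.5% of all genes. Os9 stood at 379, 323, 405.5 and 426 CPM in control MPP3, against the 279 to 365 CPM of control HSC given above. It was higher in MPP3 in 4 of 4 batches, and the log2 fold change of 0.24 ± 0.11 (95% interval 0.01 to 0.47) had an edgeR adjusted p of 0.172, or 0.0442 with batch as a block, which called 15.8% of all genes and 1 member. Sel1l stood at 82.6, 74.3, 86.8 and 94.9 CPM in control MPP3, lower than control HSC of the same batch in 4 of 4 cases, with a log2 fold change of -0.24 ± 0.11 (-0.47 to -0.01, edgeR adjusted p = 0.160). Edem2 was higher in MPP3 in 4 of 4 batches at 0.17 ± 0.10 (-0.04 to 0.38, edgeR adjusted p = 0.310). No member's groups were free of overlap, against 19.5% of all genes.

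In mutant mice, Edem1 and Edem2, both mannose-trimming EDEM genes, rose from HSC to MPP3, 2 of 10 members beside 8.36% of all genes in either direction and 3.69% higher. Edem1 (ENSMUSG00000030104, chr6:108828641-108859356, plus strand) stood at 12.5, 11.3, 11.6 and 10.6 CPM in mutant HSC and reached 16.9, 23.8, 21.6 and 25.2 CPM in mutant MPP3. Its log2 fold change was 0.93 ± 0.21 (95% interval 0.48 to 1.37, edgeR adjusted p = 0.00925), or 1.9-fold. Edem2 stood at 161, 178, 189.9 and 212 CPM in mutant MPP3, all above the 119.5 to 139.5 CPM of mutant HSC, with a log2 fold change of 0.51 ± 0.10 (0.30 to 0.73, edgeR adjusted p = 0.00303). Both genes were higher in MPP3 in 4 of 4 batches, and both calls held with any 1 library left out. Without mutant HSC replicates 1 and 4, the edgeR adjusted p was 0.0746 for Edem1 and 0.0146 for Edem2, and without batch 1 it was 0.00701 and 0.0103. The 4 mutant HSC libraries that enter here are those of the mutant against control comparison in HSC, so the fall and the rise of Edem2 are not separate evidence. The test of a difference given above also asks whether the change from HSC to MPP3 differed between genotypes. No member passed it, so the rises of Edem1 and Edem2 were not shown to be particular to mutant mice.

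Edem3 and Os9 lay on the same side. Edem3 stood at 5.45, 4.24, 4.29 and 5.96 CPM in mutant HSC, all under the 8.05 to 12.5 CPM of mutant MPP3, with a log2 fold change of 1.00 ± 0.31 (0.35 to 1.65, edgeR adjusted p = 0.0559). It passed with DESeq2 (0.0285) and with control MPP3 replicate 1 left out (edgeR, 0.0305). Os9 stood at 348, 332, 385 and 402 CPM in mutant MPP3, all above mutant HSC, with 0.34 ± 0.11 (0.11 to 0.57, edgeR adjusted p = 0.0707). The adjusted p of Os9 was 0.0116 with batch as a block, 0.0383 with DESeq2 and 0.0355 with effective-length offsets in edgeR. The block called 9.59% of all genes in this comparison, DESeq2 11.5% and limma-voom 8.5%. Derl1 went the other way, with 66.6, 68.4, 67.7 and 67.9 CPM in mutant HSC all above the 39.9 to 61.0 CPM of mutant MPP3 and a log2 fold change of -0.39 ± 0.15 (-0.71 to -0.07, edgeR adjusted p = 0.141). The groups did not overlap for 5 of 10 members (Edem1, Edem2, Edem3 and Os9 higher, Derl1 lower), against 13.8% of all genes, 6.14% higher and 7.63% lower. The same 5 members had an unadjusted p under 0.05 by edgeR, against 20.4% of all genes. Sel1l (0.04, interval -0.19 to 0.26), Syvn1 (0.04, -0.37 to 0.46), Herpud1 (-0.15, -0.49 to 0.18) and Derl2 (0.26, -0.06 to 0.58) overlapped between the cell types.

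**Figure D3:**
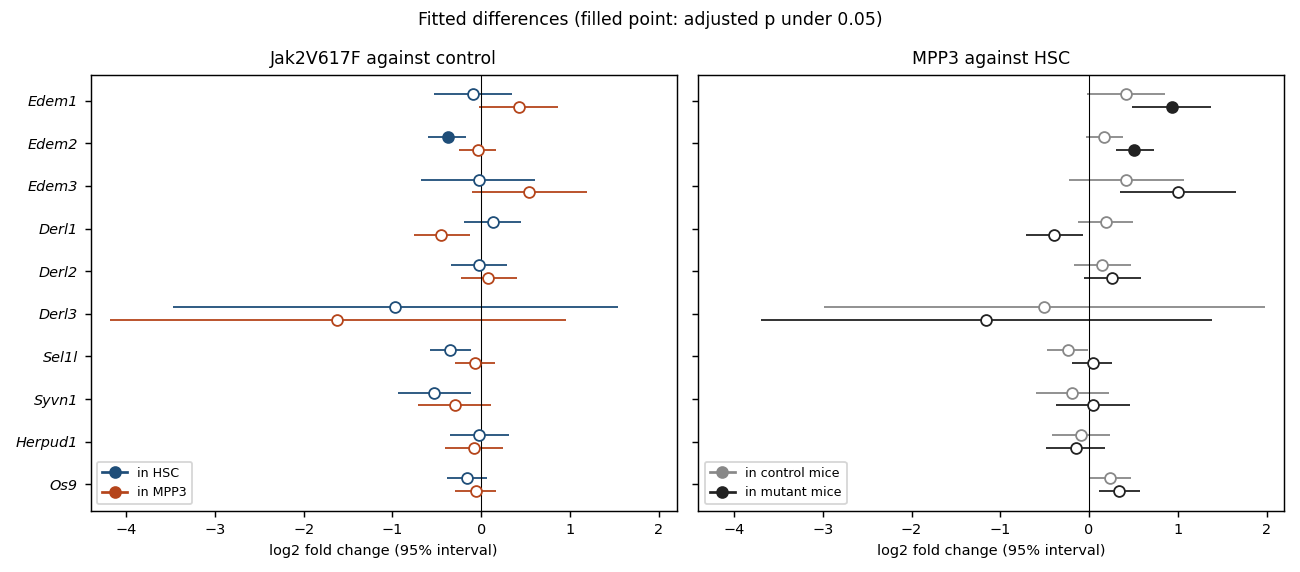
Fitted log2 fold changes with 95% intervals for the 10 ERAD genes, mutant against control at left and MPP3 against HSC at right, with filled points where the edgeR adjusted p was under 0.05. The filled points are Edem2 in mutant HSC (-0.38) and, in mutant mice, Edem1 (0.93) and Edem2 (0.51) from HSC to MPP3.

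Other ERAD genes were taken from 5 lists by role, with 84 genes matched and 81 tested. In mutant against control HSC, their median log2 fold change was -0.10, beside -0.06 over all genes. Of the 23 tested ER membrane ligases and cofactors, 19 had negative values in mutant HSC, with a median of -0.21 and 0 calls by edgeR. Of these 23, 1 had an unadjusted p under 0.05 by edgeR, against 21.7% of all genes. The share of all genes with negative values was not computed. For the 11 genes of substrate recognition and trimming the median was -0.12, for the 8 ubiquitin-conjugating enzymes 0.07, for the 17 genes of extraction by VCP -0.03 and for the 22 genes of cytosolic escort and deubiquitination -0.02. In mutant against control MPP3, 0 of the 81 passed edgeR's test (0.0635% of all genes), with 9 at an unadjusted p under 0.05 (13.8% of all genes). DESeq2 called 1, Dnajc10, and 2.74% of all genes.

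From control HSC to control MPP3, 3 of the 81 wider ERAD genes rose and 1 fell, beside 13.6% of all genes that changed. Uggt1, the sensor that adds glucose back to unfolded glycoproteins, rose from 67.7 ± 2.47 to 97.5 ± 15.2 CPM (0.53 ± 0.11, edgeR adjusted p = 0.00497). Rhbdd2, a rhomboid-like membrane protein, fell from 171 ± 6.64 to 119 ± 8.92 CPM (-0.52 ± 0.10, edgeR adjusted p = 0.00226). These 2 calls held with any 1 library left out and without batch 1. Usp25, a deubiquitinase, rose by 0.46 ± 0.14 (edgeR adjusted p = 0.0319; up to 0.101 without control HSC replicate 1 or 3 or control MPP3 replicate 1 or 3, and 0.233 without batch 1). Rnf145, an ER membrane ligase, rose by 0.64 ± 0.19 (edgeR adjusted p = 0.035; up to 0.119 without control HSC replicate 1, 2 or 3 or control MPP3 replicate 2, 3 or 4, and 0.0687 without batch 1). In mutant mice, 1 of the 81 rose and 1 fell from HSC to MPP3, beside 8.36% of all genes that changed. Dnajc10, an ER disulfide reductase of this route, rose from 101 ± 6.87 to 135 ± 13.0 CPM (0.43 ± 0.10, edgeR adjusted p = 0.008), and Rhbdd2 fell, with -0.44 ± 0.10 (edgeR adjusted p = 0.0105, 0.0531 without batch 1 and 0.0676 without mutant HSC replicates 1 and 4). Rhbdd2 thus fell from HSC to MPP3 in both genotypes. The comparisons share no library, but they share the batches and the fitted model's estimate of the spread.

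**Figure D4:**
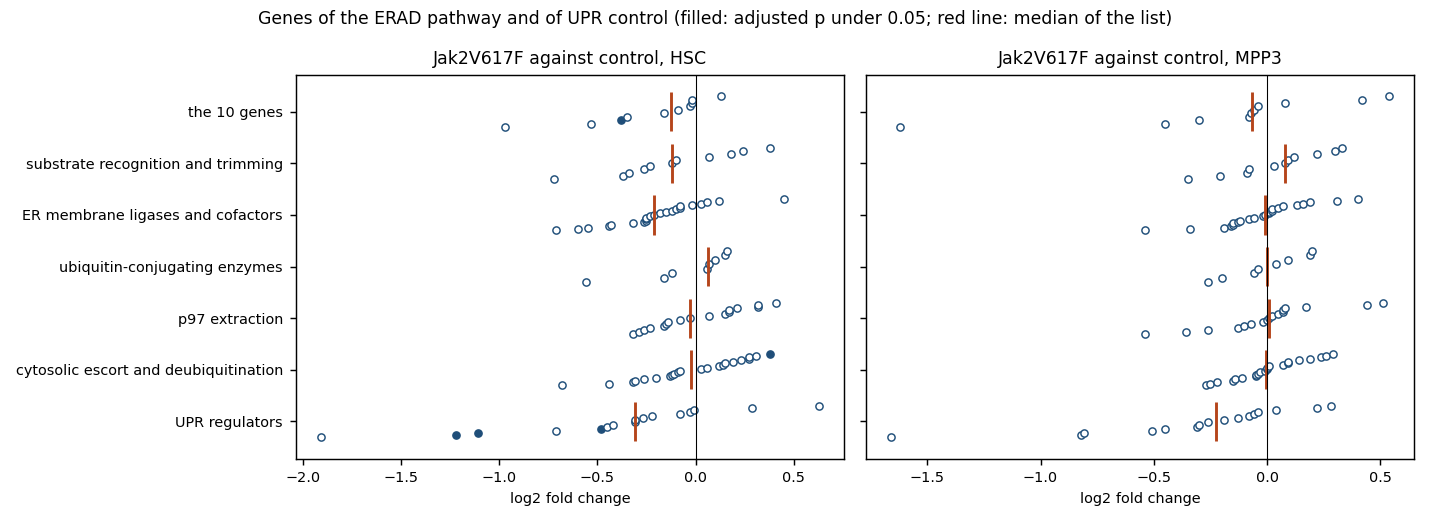
Log2 fold changes of mutant against control in HSC (left) and MPP3 (right) for the 10 ERAD genes, 5 further ERAD lists and the UPR regulators, 1 point per gene, filled where the edgeR adjusted p was under 0.05, with a red line at each list's median. In HSC the median is -0.21 for the ER membrane ligases and -0.31 for the UPR regulators.

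Of 16 regulators of the unfolded protein response, 3 fell in mutant HSC and 0 rose, beside 2.74% of all genes that fell. Their median log2 fold change was -0.31, beside -0.06 over all genes. Xbp1, the factor that drives many ERAD genes, stood at 48.4, 43.8, 39.9 and 33.4 CPM in control HSC and at 18.4, 18.8, 24.5 and 15.0 CPM in mutant HSC. All mutant values lay under all controls, and Xbp1 fell, at -1.11 ± 0.21 on the log2 scale with an adjusted p of 0.00461 by edgeR (0.102 without mutant HSC replicates 1 and 4). These are counts per gene, which do not separate forms of the Xbp1 transcript or show the activity of its protein. Ern1, the sensor kinase and nuclease upstream of Xbp1, stood at 69.9, 34.1, 16.03 and 33.9 CPM in control HSC and at 10.7, 19.4, 18.5 and 17.4 CPM in mutant HSC. Its groups overlapped, batch 3 went the other way (log2 difference 0.21), and it passed the test at -1.22 ± 0.33 (edgeR adjusted p = 0.0343). That call was lost with limma-voom (0.0686), with HSC fitted alone (0.0809), without mutant HSC replicates 1 and 4 (0.28) and without batch 1 (0.272). Nfe2l1, a factor of proteasome genes, fell as well, at -0.48 ± 0.12 on that scale (edgeR adjusted p = 0.0229, 0.12 without mutant HSC replicates 1 and 4 and 0.122 without batch 1). With 1 library left out, the adjusted p of Ern1 rose to as much as 0.138 (control HSC replicates 1, 2 and 4, mutant HSC replicates 1, 2 and 4). That of Nfe2l1 rose to as much as 0.0939 (control HSC replicates 1 and 2, any of the 4 mutant HSC libraries). Among the members with an ER stress element in the printed windows, the log2 fold changes in mutant HSC were -0.02 for Herpud1, -0.53 for Syvn1 and -0.97 for Derl3, with the intervals given above. Hspa5 and Hsp90b1, wider ERAD genes whose windows held ERSE, had positive values of 0.07 (interval -0.45 to 0.59) and 0.38 (0.04 to 0.72). Neither passed edgeR's test (adjusted p = 0.922 and 0.177). Whether genes with these elements changed together with Xbp1 was not tested. In mutant MPP3, 0 of the 16 regulators passed edgeR's test, with 2 at an unadjusted p under 0.05, against 13.8% of all genes. From HSC to MPP3 in controls Xbp1 fell by 0.69 (edgeR adjusted p = 0.0373, and up to 0.111 without control HSC replicate 1, 2 or 3, control MPP3 replicate 3 or 4, or mutant MPP3 replicate 2, and 0.0643 without batch 1). The lists were assembled with earlier results for Xbp1 and other regulators known, so their direction is not independent evidence.

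Pairs of members ranged from positive to negative correlation. Over the 16 libraries, with each group's mean subtracted from log2 CPM, 23 of the 36 pairs among the 9 members other than Derl3 had a positive Pearson r. The median r was 0.10, and the same share over pairs of other genes was not computed. The highest were Derl2 with Herpud1 (0.79) and Edem2 with Os9 (0.72), and the lowest Edem2 with Derl1 (-0.63). Sel1l and Syvn1, partners in 1 complex, had r = -0.27. The genes whose pattern was most like that of Edem2, by the same measure over 9689 genes, were Antxr2 (0.91), H2-T22 (0.90) and Daxx (0.88), and for Edem1 they were Yju2 (0.82), Tgm2 (0.82) and Ndn (0.75). These values are descriptions of 16 libraries that share batches and depth between genes, and carry no test.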

How the data were processed

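RNA was measured in 16 libraries of sorted mouse bone marrow cells. Per the labels, 10 ng of RNA with an integrity score over 8.0 entered a SMARTer Ultra Low library read as 150-base pairs. The submitters' processing notes name cutadapt 4.0, FastQC, HISAT2 and Salmon with GRCm38 (mm10); their roles, settings, the transcript set and the strand were not given in the sources used here. As deposited, the authors' tables hold estimated counts per gene (not normalized), TPM and, per the file headers, effective lengths (used in 1 alternative). Of 31716 rows per table, 1910 single-transcript rows (up to 0.796% of counts) were left out; symbols came from GENCODE M21.

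Counts were rounded and tested with edgeR 4.0.16 in R 4.3.3: filterByExpr by group, TMM, glmQLFit (robust) and glmQLFTest in 1 model with 4 group coefficients, and Benjamini-Hochberg adjustment over 14179 genes. SE was the log2 fold change over the square root of F. CPM used TMM-scaled totals, and log2 CPM a prior count of 2. Alternatives were RLE, plain totals, no filter, DESeq2 1.42.0, limma-voom 3.58.1, effective-length offsets, the compared groups alone, batch as a block, mutant HSC replicates 1 and 4 left out, each library left out and, chosen after seeing the data, batch 1 left out. Scripts were tested on simulated data, where edgeR and limma-voom kept to the limit set on false calls. DESeq2 made more false calls than its threshold allows and was exempted from that limit, so its added calls carry less weight.

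The replicate number is the batch per the labels, so it pairs the samples: r between same-numbered libraries' deviations from their group means ran from -0.03 to 0.16 over 24 comparisons, and 17 matched best with their own number. Every HSC library matched best with the same-numbered MPP3 library of its own genotype (r from 0.08 to 0.16). The other pairs of groups did so only in part. The main tests did not use this pairing, which entered only with batch as a block. All 10 members were named; of the other lists, called genes were named (up to 6 per list and comparison), and the 3 most similar genes of at least 5 CPM were given for each called member. Part of what this rule selects is not reported here. The members and lists were chosen with earlier results of these data known.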

Additional observations from a re-analysis of the deposited data

How the results depend on the processing

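Of the member log2 fold changes under the alternatives, 1192 kept their direction and side of the threshold, 14 lost a call, 7 gained one and 56 changed sign. With batch as a replicate block, the pairing moved member calls from 0 to 1 (Os9) from control HSC to control MPP3, wider ERAD calls from 1 to 2 in mutant HSC and from 4 to 7 from control HSC to control MPP3, made Os9 pass from HSC to MPP3 in mutants (adjusted p 0.0116) and changed no other member call. The same block gave Herpud1 a log2 fold change of 0.01 in mutant HSC. DESeq2 called 2 members (main 1) in mutant HSC and 4 (main 2) from HSC to MPP3 in mutants, and 3, 1 and 8 wider genes (main 1, 0 and 4) in mutant HSC, in mutant MPP3 and from HSC to MPP3 in controls. The share of all genes that DESeq2 called was also higher, 11.8% in mutant HSC against 7.3% by edgeR. Members called in mutant HSC were 0 without a filter, 0 with the groups compared alone and 0 without mutant HSC replicates 1 and 4. Without those replicates, 0 wider genes were called in mutant HSC and 1 member from HSC to MPP3 in mutants. The groups alone gave 2 wider calls in controls and 1 in mutants from HSC to MPP3, and effective lengths gave 2 wider calls in mutant HSC. With 1 library left out, members called in mutant HSC ran from 0 to 1, wider genes from 0 to 2 there and from 2 to 6 from HSC to MPP3 in controls, with 2 to 3 members and 2 to 3 wider genes in mutants. Without batch 1, chosen after seeing the data, 0 members and 0 wider genes were called in mutant HSC and 2 wider genes from HSC to MPP3 in controls. The cause of these moves was not tested.

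The sign changes fell on log2 fold changes that no setting named here called. In mutant HSC these were Edem3 with limma-voom (0.00), Derl2 without a filter (0.01), with effective lengths (0.13) and with the groups alone (0.01), and Herpud1 without a filter (0.01) and with the groups alone (0.01). From HSC to MPP3, Derl3 in controls gave 0.57 with limma-voom. In mutants, Sel1l gave -0.03 with plain totals and -0.04 with effective lengths, Syvn1 gave -0.01 with plain totals and -0.01 without mutant HSC replicates 1 and 4, and Herpud1 gave 0.02 without them. For the difference of effects, Derl2 gave -0.04 with effective lengths and Herpud1 0.11 without those replicates. Without batch 1, Derl2 gave 0.01 in mutant HSC, Edem2 0.04 in mutant MPP3, Sel1l -0.01 from HSC to MPP3 in mutants and Herpud1 0.00 for the difference. With 1 library left out, the ranges that crossed 0 in mutant HSC were -0.13 to 0.13 (Derl2), -0.18 to 0.08 (Edem3) and -0.13 to 0.11 (Herpud1), and in mutant MPP3 -0.12 to 0.01 (Edem2). From HSC to MPP3 they were -0.91 to 0.30 (Derl3) and -0.21 to 0.04 (Herpud1) in controls, and -0.05 to 0.06 (Sel1l) and -0.08 to 0.17 (Syvn1) in mutants. For the difference they were -0.03 to 0.21 (Derl2) and -0.19 to 0.05 (Herpud1).

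Depth limits Derl3 above all, since a count of 3 is the floor per library and its counts ran from 0 to 101. No scaling moved the median of all genes by more than 0.06 on the log2 scale. In 40 sets of a member and a group, no library stood apart by Dixon's criterion.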

Other observations

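The neighbours of Edem2 on chromosome 2 were looked at after its values were seen. Procr, which encodes the HSC surface marker EPCR, lies 21642 bases from Edem2. Procr fell in mutant HSC by 1.08 on the log2 scale (SE 0.22, edgeR adjusted p = 0.00742), and from HSC to MPP3 in controls by 1.52 (SE 0.23, edgeR adjusted p = 0.000216). Edem2 had a log2 fold change of 0.17 ± 0.10 in that second comparison (edgeR adjusted p = 0.310), so the pair differed in sign there. The other neighbours within 50 kb, Trpc4ap and Mmp24, had log2 fold changes of -0.22 ± 0.17 (edgeR adjusted p = 0.531) and -0.18 ± 0.22 (edgeR adjusted p = 0.732) in mutant HSC.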
